A study of Mus musculus with 9 samples.

Results

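The 39 genes described here encode the machinery that copies nuclear DNA and a group of enzymes that supply its nucleotides. They were taken by gene symbol from a table of 54532 gene IDs, in which all 39 were found, and all 39 passed the filter on low values and were among the 13245 genes tested. The values come from RNA sequencing (RNA-seq) of 9 libraries of HT22 cells, an immortalized mouse hippocampal line used as a cell model of ischemic stroke. OGE cells went through 2 h of oxygen-glucose deprivation (OGD) and 24 h of reoxygenation with extracellular vesicles from mesenchymal stem cells made from human induced pluripotent stem cells (hiPS-MSC-EVs). OGP cells went through the same with PBS, and control cells were left untreated, with 3 libraries in each group. The labels give all 9 libraries the genotype WT. All groups come from a single dividing line. The study gives a vesicle dose for HT22 cells but does not repeat it for the sequenced ones. The study's OGD medium held no serum. Whether OGP, OGE and control cells had the same serum afterwards is not clear from the sources used here. Neither is whether replicates were separate cultures, so the spread behind each p-value may be technical.

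DNA replication starts at origins that the origin recognition complex marks in G1 phase, where Cdc6 and Cdt1 load the ring-shaped MCM helicase onto DNA. In S phase Cdc45 and the GINS complex turn the loaded helicase into an active one, DNA polymerase alpha with primase lays down primers, and polymerases delta and epsilon extend them with the sliding clamp PCNA, which the RFC complex loads. Ribonucleotide reductase, thymidylate synthase and thymidine kinase supply the deoxynucleotides. Many of these genes are known targets of the E2F transcription factors. Mature neurons do not replicate their DNA, and HT22 cells are grown as a dividing line.

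Transcripts of dividing cells were abundant and those of mature neurons were mostly near 0. The proliferation marker Mki67 was at 33.5 to 62.2 FPKM (fragments per kilobase of gene length, scaled to the library's depth) and Top2a, the topoisomerase of cycling cells, at 83.3 to 127 FPKM over the 9 libraries. Of 8 neuron markers, only Tubb3, a neuronal tubulin, and Map2, a dendritic protein, passed the filter, and Gad1, which makes the inhibitory transmitter, was at 0 in every library. Of 20 markers of astrocytes, microglia, oligodendrocytes and endothelium, only Slc1a3, a glutamate transporter, and Tmem119, a microglial surface protein, passed it. Reads in genes numbered 15026700 to 17368049 in OGE, 16259448 to 19476806 in OGP and 17069241 to 18506865 in control libraries. Mitochondrial genes took 2.03% to 2.90% of the reads in OGE, 2.45% to 3.25% in OGP and 1.10% to 2.31% in control libraries, and their part in the differences between groups was not tested.

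Some markers of other cells moved with the groups. The summed level of the 5 astrocyte markers was 2.78 to 3.27 FPKM in OGE, 4.10 to 5.67 FPKM in OGP and 9.31 to 11.1 FPKM in control libraries, most of it Slc1a3, which fell by 0.98 on the log2 scale in OGP against control, 0.64 in OGE against OGP and 1.62 in OGE against control, while Aqp4 was at 0 in every library. The 5 microglia markers summed to 8.86 to 9.95 FPKM in OGE, 16.4 to 18.9 FPKM in OGP and 11.99 to 17.1 FPKM in control libraries, most of it Tmem119. It fell by 0.90 in OGE against OGP and by 0.65 in OGE against control. The 3 mesenchymal stem cell markers summed to 5.54 to 6.03 FPKM in OGE, 3.18 to 3.37 FPKM in OGP and 2.37 to 2.48 FPKM in control libraries. Of these, Nt5e, a surface nucleotidase, rose by 1.23 in OGE against OGP (limma adjusted p = 5.3e-05), and Thy1 had a read in 1 library only. Eng, which also passed the filter, went the other way, at a log2 fold change of -0.277 in OGE against OGP. Its OGE libraries all lay below its OGP libraries, but it did not pass the study's thresholds. The 8 neuron markers summed to 13.6 to 17.6 FPKM in OGE, 12.5 to 13.5 FPKM in OGP and 7.99 to 10.5 FPKM in control libraries, most of it Tubb3. Tubb3 rose by 0.78 on the log2 scale in OGE against control, while its 0.35 in OGE against OGP was not called. Map2 went the other way between OGE and OGP, at 1.32, 1.47 and 1.21 FPKM in OGE and 1.95, 2.45 and 1.98 FPKM in OGP libraries. The part of these markers in the results was not tested.

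The start regions of 4 members are printed as examples. Pola1 and Rrm2 were the members that passed the study's thresholds in a comparison. Mcm5 and Mcm6 are subunits of a single complex, of which Mcm6 was highest in OGP and Mcm5 overlapped between all groups. Each region runs from 250 bases before to 50 bases after the gene's start in RefSeq (GRCm38.p6, the build also known as mm10), 5′ to 3′ on the gene's strand. Capitals mark any of 4 words of the E2F consensus, TTTCCCGC, TTTCGCGC, TTTGCCGC and TTTGGCGC, searched on both strands, where words on opposite strands can overlap.
Pola1: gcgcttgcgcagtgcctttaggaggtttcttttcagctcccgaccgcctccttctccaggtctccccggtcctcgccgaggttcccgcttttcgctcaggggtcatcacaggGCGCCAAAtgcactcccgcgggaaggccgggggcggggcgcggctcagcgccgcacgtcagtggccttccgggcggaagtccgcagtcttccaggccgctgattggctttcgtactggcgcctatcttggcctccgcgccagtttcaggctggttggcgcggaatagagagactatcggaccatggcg
Rrm2: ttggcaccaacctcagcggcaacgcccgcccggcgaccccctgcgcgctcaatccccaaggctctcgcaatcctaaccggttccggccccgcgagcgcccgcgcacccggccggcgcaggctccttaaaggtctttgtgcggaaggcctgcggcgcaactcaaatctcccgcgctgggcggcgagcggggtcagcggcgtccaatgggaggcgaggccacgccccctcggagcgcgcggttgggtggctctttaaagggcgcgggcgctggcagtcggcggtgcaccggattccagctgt
Mcm6: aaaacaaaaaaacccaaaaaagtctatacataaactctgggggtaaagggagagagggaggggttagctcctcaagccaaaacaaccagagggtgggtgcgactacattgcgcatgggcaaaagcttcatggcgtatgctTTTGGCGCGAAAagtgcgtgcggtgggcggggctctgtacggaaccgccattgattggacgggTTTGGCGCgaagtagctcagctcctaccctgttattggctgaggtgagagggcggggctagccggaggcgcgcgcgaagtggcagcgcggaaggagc
Mcm5: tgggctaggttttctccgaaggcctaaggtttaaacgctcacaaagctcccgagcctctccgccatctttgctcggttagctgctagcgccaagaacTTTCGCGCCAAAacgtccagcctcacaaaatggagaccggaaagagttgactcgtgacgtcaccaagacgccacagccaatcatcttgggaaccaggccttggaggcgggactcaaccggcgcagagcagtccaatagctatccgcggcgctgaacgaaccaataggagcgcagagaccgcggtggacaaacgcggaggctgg

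The region of Pola1 lies at chrX:93632106-93632405 on the minus strand and holds 1 word, at position -138 from the start. The region of Rrm2 lies at chr12:24708004-24708303 on the plus strand and holds none of the 4 words. The region of Mcm6, at chr1:128359656-128359955 on the minus strand, holds 3, the first pair of which overlap, and that of Mcm5, at chr8:75109259-75109558 on the plus strand, holds 2 that overlap. RefSeq regions were matched for 33 members, and 13 of them (39.4%) held at least 1 word, against 744 of 32851 regions of the same length (2.26%). The 13 were Mcm3, Mcm5, Mcm6, Mcm7, Cdc6, Cdt1, Gins3, Orc1, Pola1, Pold1, Pold3, Pole2 and Rfc3. A match describes letters and says nothing of binding. The 6 members with no matched region were Gins1, Gins2, Mcm4, Pole, Prim2 and Rfc2.

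All 39 genes were expressed in every library. Pcna, the sliding clamp, was highest, at 168 to 228 FPKM over the 9 libraries, followed by Mcm6 at 101 to 143 FPKM and Mcm4 at 82.6 to 93.5 FPKM. Mcm5, Rrm2 and Mcm3 came next with means of 79.5, 78.2 and 76.9 FPKM over all libraries, and their ranges overlapped. Fen1, the nuclease that trims the flaps of lagging-strand fragments, was lowest, at 2.05 to 5.15 FPKM, below Orc1 and Gins3 with means of 7.004 and 7.466 FPKM, whose ranges overlapped. The reads behind a member's value ran from 84 in a library for Fen1 to 12347 for Mcm6. Together the 39 genes took 0.655% ± 0.00385 of the reads in OGE, 0.691% ± 0.00117 in OGP and 0.647% ± 0.00996 in control libraries (SD, n = 3 each), and the OGP libraries did not overlap with either of the other groups. In such bulk samples, a different share of cells in S phase and a different amount of RNA per cell cannot be told apart.

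**Figure D1:**
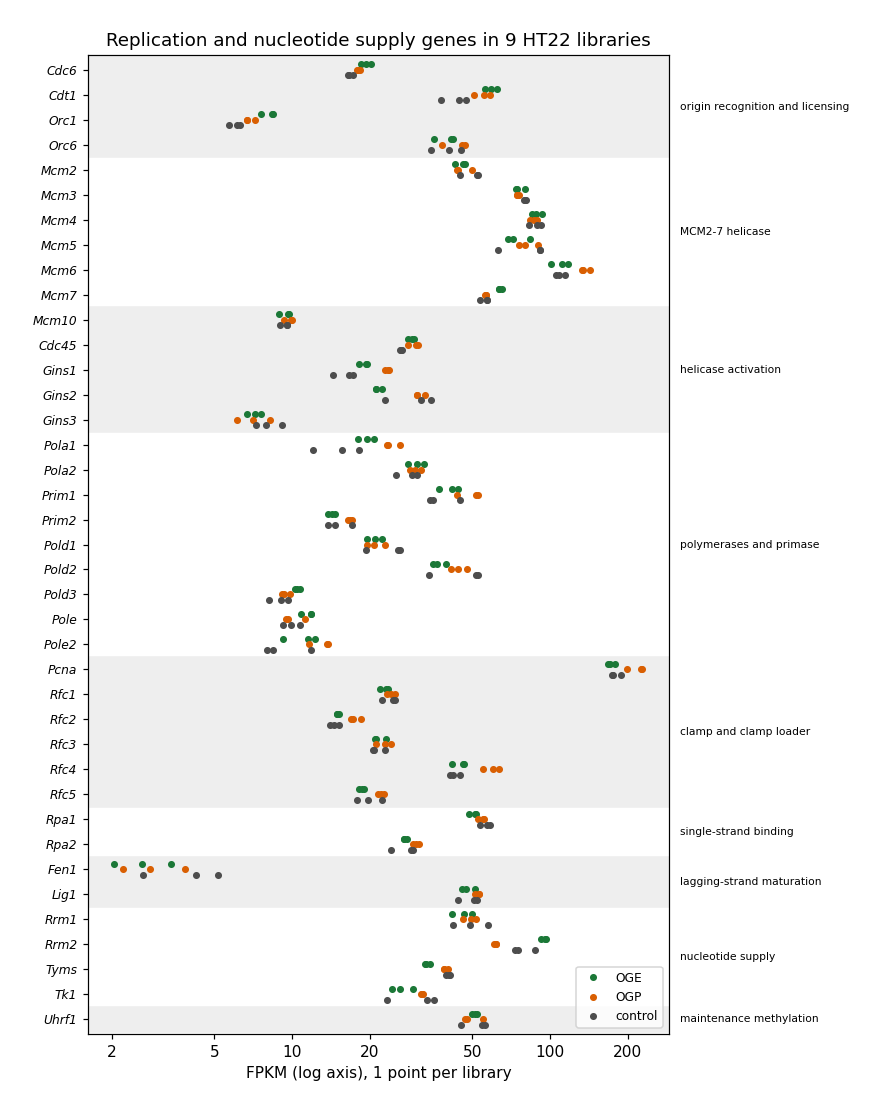
FPKM of each of the 39 genes on a log axis, with 1 point for each library and genes ordered by role from origin recognition to maintenance methylation. Pcna lies at 168 to 228 FPKM and Fen1 at 2.05 to 5.15 FPKM.

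OGP cells were compared with control cells, which takes in OGD, reoxygenation and any difference in serum. By the study's thresholds, which ask for a fold of 1.5 or more beside an adjusted p of at most 0.05, a single member rose in OGP cells, Pola1, the catalytic subunit of DNA polymerase alpha, and 0 members fell. Over all genes tested, 6.38% rose and 5.74% fell, 12.1% in either direction. At an unadjusted p under 0.05, 11 members differed, where 41.7% of all genes did, and voom on recovered reads gave the same counts of 1 and 0. The median log2 fold change was 0.09 over the 39 members and 0.01 over all genes, with 27 members above 0 and 12 below. With no threshold on the fold, limma gave an adjusted p of at most 0.05 to 9 members higher in OGP, Mcm6, Cdt1, Gins1, Pcna, Pola1, Prim1, Pole2, Rfc2 and Rfc4, against 13.8% of all genes, and to 1 lower, Rrm2, against 16% of all genes, 29.8% in either direction. That count of 9 was 5 when OGP replicate 2 was left out, 3 when it was OGP replicate 3 and 4 when it was control replicate 3, and the count of 1 was 3 without control replicate 1. Gins1, Pola1, Rfc4 and Rrm2 passed whichever library was left out.

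OGE cells were compared with OGP cells, which takes in the vesicles and any difference in serum after OGD. A single member rose, Rrm2, the small subunit of ribonucleotide reductase, and 0 members fell, against 3.39% of all genes higher and 4.73% lower, 8.12% in either direction. At an unadjusted p under 0.05, 13 members differed, where 34.7% of all genes did, and voom on recovered reads again gave 1 and 0. The median log2 fold change was -0.10 over the members and 0.00 over all genes, with 12 members above 0 and 27 below. Under quantile normalization the members' median was -0.03. With no threshold on the fold, Rrm2 was the single member higher, against 10.6% of all genes, and 6 members were lower at an adjusted p of at most 0.05 in limma, Mcm6, Gins1, Gins2, Pcna, Rfc4 and Tyms, against 10.2% of all genes, 20.8% in either direction. The count of 6 lower members was 1 without OGE replicate 1, OGE replicate 3, OGP replicate 2 or OGP replicate 3, 3 without OGE replicate 2 and 12 without control replicate 1, and the count of 1 higher member was 3 without control replicate 1. Rrm2 and Rfc4 passed whichever library was left out. This comparison shares the OGP libraries with the one before it.

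Between OGE and control cells 0 members rose and 0 fell by limma at the study's thresholds, against 5.14% and 6.33% of all genes, 11.5% in either direction, and voom gave the same counts. At an unadjusted p under 0.05, 11 members differed, where 37% of all genes did. The median log2 fold change was 0.00 over the members and 0.00 over all genes. With no threshold on the fold, Mcm7, Cdc6, Cdt1, Orc1 and Rrm2 were higher, 5 members against 11.7% of all genes, and Gins2 and Tyms were lower, 2 members against 13.1%, where 24.8% of all genes passed in either direction. These counts of 5 and 2 were 8 and 8 without control replicate 1, 3 and 1 without control replicate 2, 2 and 0 without OGE replicate 1 and 2 and 1 when any other library was left out. Cdt1 and Orc1 passed whichever library was left out. At the study's thresholds, Gins2 and Fen1 were called lower without control replicate 1, at log2 fold changes of -0.60 and -0.72.

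For most members the data limited how large a difference could be. The 95% interval of the log2 fold change lay wholly inside a 1.5-fold change in either direction for 33 members (84.6%) between OGP and control, 32 (82.1%) between OGE and OGP and 34 (87.2%) between OGE and control. Over all genes tested the shares were 53.2%, 59.5% and 56.4%. The related lists counted further below also lay above these shares. They were at 63.6%, 84.8% and 97.0% for other replication factors and at 100% throughout for chromatin factors. Other nucleotide supply enzymes were at 74.2%, 80.6% and 74.2%. Mitosis genes were at 67.7%, 87.1% and 77.4%, and G1 and E2F regulators at 58.6%, 69.0% and 65.5%. The median distance from the estimate to the end of its interval was 0.19 on the log2 scale for the members and 0.28 for all genes, and the median size of the difference was 0.12, 0.14 and 0.13 for the members against 0.25, 0.21 and 0.22 for all genes. Pola1, Pole2, Rfc4 and Fen1 reached past 1.5-fold in the first pair of comparisons, Gins1 and Prim1 in OGP against control, and Gins2, Pold2 and Rrm2 in OGE against OGP. In OGE against control it was Cdt1, Gins2, Pola1, Pold2 and Fen1.

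**Figure D2:**
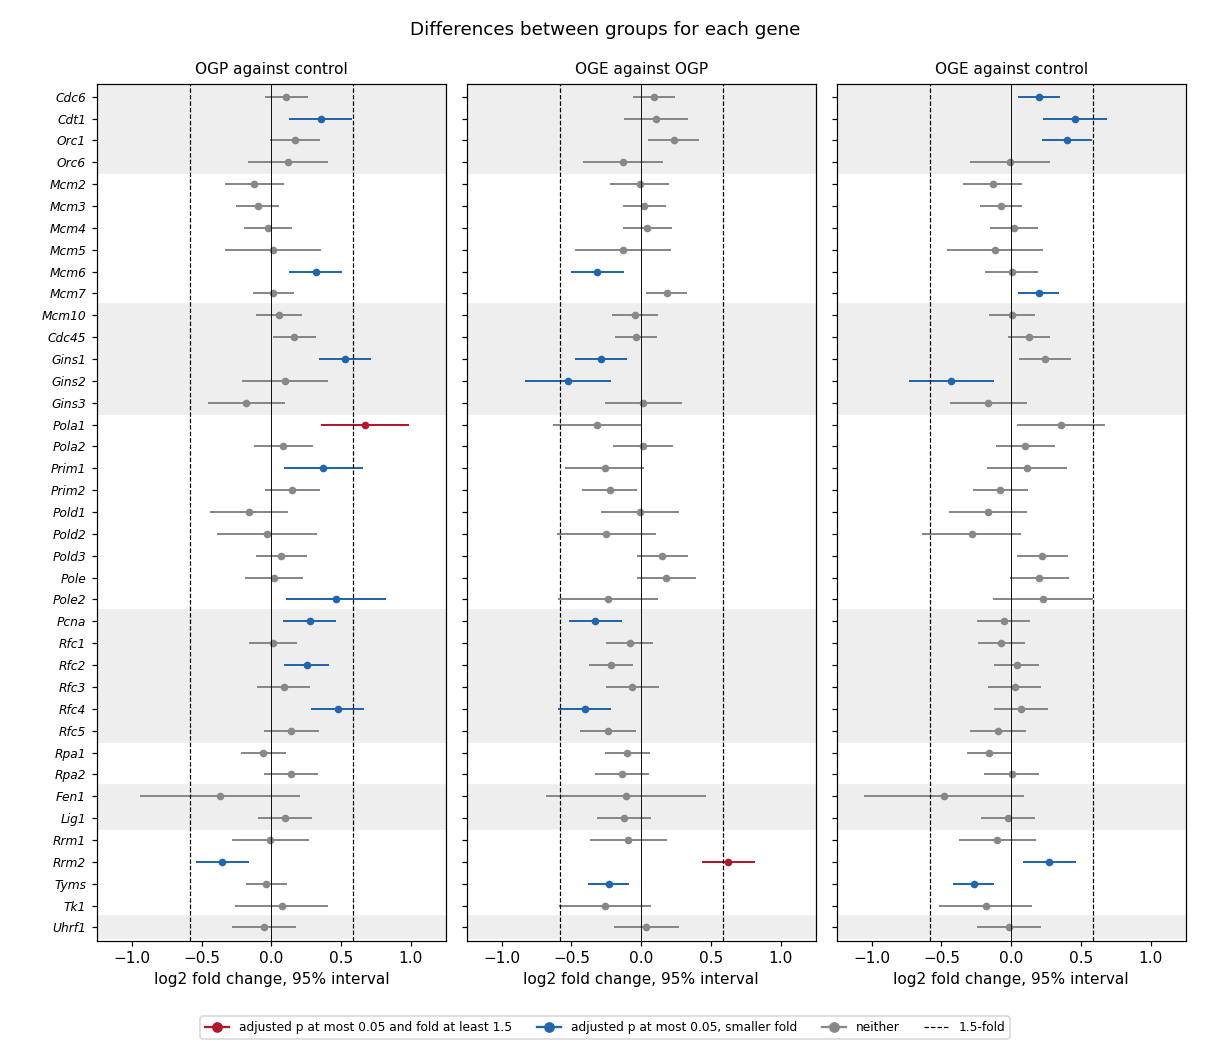
Log2 fold change of each gene with its 95% interval in OGP against control, OGE against OGP and OGE against control, with dashed lines at 1.5-fold. Pola1 in the left panel and Rrm2 in the middle panel are the points drawn in red, which passed both thresholds, and most intervals lie between the dashed lines.

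Among the origin recognition and licensing genes, Orc1, the largest subunit of the origin recognition complex, was at 8.44, 8.37 and 7.58 FPKM in OGE, 7.17, 6.70 and 6.68 FPKM in OGP and 6.30, 5.68 and 6.12 FPKM in control libraries. The 3 groups did not overlap, and OGE was highest and control lowest. The log2 fold change was 0.40 ± 0.08 (SE) in OGE against control (limma adjusted p = 0.0053), 0.23 ± 0.08 in OGE against OGP (adjusted p = 0.063) and 0.17 ± 0.08 in OGP against control (adjusted p = 0.13). About 10.8% of the exon length of Orc1 overlaps a gene on the opposite strand, Gm12743, and strand use in counting is not given. Cdt1, which brings the MCM ring to origins, was at 58.9, 55.8 and 62.2 FPKM in OGE, 58.4, 50.9 and 55.3 FPKM in OGP and 37.7, 47.1 and 44.2 FPKM in control libraries. Both OGD groups lay above every control library and overlapped each other. Cdt1 differed by 0.46 ± 0.10 in OGE against control (adjusted p = 0.0092) and by 0.35 ± 0.10 in OGP against control (adjusted p = 0.025). The ratio of Cdt1 to Gmnn, the gene of its inhibitor geminin, was 1.81 ± 0.184 in OGE, 1.38 ± 0.295 in OGP and 1.22 ± 0.0323 in control libraries (SD, n = 3 each). An exact permutation test on this ratio gave a two-sided p of 0.1 for OGE against control, the smallest that 3 against 3 libraries allow. For OGE against OGP it gave 0.2. Cdt1 alone already separated OGE from control, so the p of 0.1 adds nothing to the Cdt1 values. Cdc6, the ATPase that works with Cdt1, had the same order of groups in smaller steps, with means of 19.3 ± 0.804 FPKM in OGE, 18.1 ± 0.213 FPKM in OGP and 16.8 ± 0.446 FPKM in control libraries (SD, n = 3 each). Orc6, the smallest subunit of the complex, overlapped between all groups, at 34.6 to 46.9 FPKM.

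The 6 subunits of the MCM helicase form a ring in equal numbers. Their transcripts differed in the order of the groups, but limma compared groups and not subunits. Mcm6 was at 111, 118 and 101 FPKM in OGE, 134, 133 and 143 FPKM in OGP and 115, 106 and 108 FPKM in control libraries. Every OGP library lay above all libraries of the other groups, which overlapped each other. The log2 fold change of Mcm6 was 0.32 ± 0.08 in OGP against control (limma adjusted p = 0.017), and -0.31 ± 0.08 in OGE against OGP (adjusted p = 0.025), under 1.5-fold in both. With 1 library left out, these kept an adjusted p of at most 0.05 in 7 and 5 of 9 fits. Mcm7 was at 63.6, 64.9 and 63.5 FPKM in OGE, 56.6, 56.5 and 56.1 FPKM in OGP and 53.7, 57.0 and 56.9 FPKM in control libraries. Here OGE stood above both of the others, by 0.20 ± 0.06 against control (adjusted p = 0.047) and 0.18 ± 0.06 against OGP (adjusted p = 0.068). Part of the Mcm7 exons, 8.7% of their length, overlaps Ap4m1 and Cops6 on the opposite strand. Mcm2, Mcm3, Mcm4 and Mcm5 gave adjusted p-values of 0.28 or more in the 3 comparisons, and all 6 subunits had intervals inside 1.5-fold throughout. Mcm5 was the most variable of them, at 69.0, 72.0 and 83.4 FPKM in OGE, 89.5, 79.9 and 75.8 FPKM in OGP and 63.1, 91.4 and 91.5 FPKM in control libraries, with control replicate 1 lowest of all.

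As a share of the summed FPKM of the 6 subunits, Mcm6 made up 23.9% ± 1.495 in OGE, 28.4% ± 1.09 in OGP and 23.6% ± 1.83 in control libraries (SD, n = 3 each). Mcm7 made up 13.9% ± 0.233 in OGE, 11.7% ± 0.166 in OGP and 12.01% ± 0.0343 in control libraries. The OGE and OGP libraries did not overlap for these shares, nor for those of Mcm3, at 16.5% ± 0.247 in OGE and 15.5% ± 0.251 in OGP, and Mcm4, at 19.4% ± 0.545 in OGE and 17.9% ± 0.685 in OGP, and for all 4 the exact permutation test gave a two-sided p of 0.1, the smallest possible here. For Mcm6, OGE against control gave 0.9 by the same exact test. The share was computed for all 6 subunits and each pair of groups, and p-values of this size do not pass a correction over them. Shares of a fixed total also depend on each other, so a lower share of Mcm6 raises the rest. By FPKM itself, Mcm3 and Mcm4 had limma adjusted p-values of 0.83 and 0.72 in OGE against OGP.

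Of the genes that activate the helicase, Gins1, a subunit of the 4-part GINS complex, was at 19.3, 18.2 and 19.5 FPKM in OGE, 23.5, 22.9 and 23.7 FPKM in OGP and 14.4, 16.6 and 17.2 FPKM in control libraries. The 3 groups did not overlap, with OGP highest and control lowest. Its log2 fold change was 0.53 ± 0.08 in OGP against control (limma adjusted p = 0.0014), the smallest adjusted p of any member in that comparison, and -0.29 ± 0.08 in OGE against OGP (adjusted p = 0.030). Its partner Gins2 was at 21.2, 21.2 and 22.4 FPKM in OGE, 30.6, 32.6 and 30.6 FPKM in OGP and 22.8, 34.4 and 31.7 FPKM in control libraries. OGE lay below every other library, and control replicate 1 was close to it. Gins2 differed by -0.52 ± 0.13 in OGE against OGP (adjusted p = 0.023) and by -0.43 ± 0.13 in OGE against control (adjusted p = 0.043). Of its exon length, 67.3% overlaps Gse1 on the opposite strand. How counting treated reads there is not given, so the overlap leaves the level of Gins2 uncertain. Gins3 overlapped between all groups, at 6.12 to 9.11 FPKM. Cdc45, which joins GINS and the MCM ring in the active helicase, had means of 28.9 ± 0.772 FPKM in OGE, 29.7 ± 1.398 FPKM in OGP and 26.5 ± 0.221 FPKM in control libraries (SD, n = 3 each), and both OGD groups lay above control without overlap. Neither difference reached an adjusted p of 0.05. Mcm10, another factor needed to start the helicase, stayed between 8.87 and 9.98 FPKM.

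Pola1, at chrX:93304767-93632155, was at 19.6, 20.8 and 18.0 FPKM in OGE, 23.3, 26.1 and 23.6 FPKM in OGP and 18.2, 12.02 and 15.6 FPKM in control libraries. All OGP libraries lay above all others, and OGE and control overlapped only through OGE replicate 3 and control replicate 1. Its log2 fold change was 0.67 ± 0.14 in OGP against control (limma adjusted p = 0.0062), a fold of 1.59 on the log2(FPKM + 0.5) scale. Without control replicate 2, the lowest library, it was 0.52 (adjusted p = 0.0094), under 1.5-fold, so that the call rests on that library, while the adjusted p did not exceed 0.030 with any library left out. In OGE against OGP, Pola1 differed by -0.32 ± 0.14 (adjusted p = 0.13). The other subunits of the same enzyme differed less: Prim1, which makes the RNA primer, by 0.37 ± 0.12 in OGP against control (adjusted p = 0.048), Prim2 by 0.15 ± 0.08 (adjusted p = 0.21) and Pola2 by 0.09 ± 0.09 (adjusted p = 0.50). The ratio of Pola1 to Pola2, its accessory subunit, was 0.645 ± 0.0902 in OGE, 0.813 ± 0.0910 in OGP and 0.549 ± 0.164 in control libraries (SD, n = 3 each). OGP against control gave a two-sided p of 0.1 by the exact permutation test. Pola1 alone already separated these groups, so the p of this ratio adds nothing to the Pola1 values. The file's length of Pola2 differs from that in GENCODE M21, which scales this ratio alike in all libraries.

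Among polymerases delta and epsilon, Pole2, the accessory subunit of the leading-strand enzyme, was at 12.3, 11.5 and 9.26 FPKM in OGE, 11.7, 13.8 and 13.7 FPKM in OGP and 11.8, 7.999 and 8.40 FPKM in control libraries. OGP and control overlapped through control replicate 1, and the log2 fold change of 0.47 ± 0.16 was at an adjusted p of 0.0499 in limma. Without control replicate 1 it was 0.63 (adjusted p = 0.0048) and passed both thresholds. Gm49384 covers 8.5% of its exon length on the same strand. Pole, its catalytic partner, was at 9.19 to 11.8 FPKM in all libraries and differed by 0.02 ± 0.09 in OGP against control, with a 95% interval of -0.18 to 0.22. Pold1, the catalytic subunit of the lagging-strand enzyme, and its accessory subunit Pold2 had control replicate 1 low against the other control libraries, at 19.4, 25.7 and 26.1 FPKM for Pold1 and 34.0, 52.5 and 51.7 FPKM for Pold2. None of Pold1, Pold2 and Pold3 had an adjusted p of at most 0.05 in a comparison. Pold3, a further accessory subunit, was at 10.3, 10.5 and 10.8 FPKM in OGE, 9.18, 9.78 and 9.29 FPKM in OGP and 9.68, 9.03 and 8.14 FPKM in control libraries, with OGE above all others.

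The clamp Pcna was at 171, 179 and 168 FPKM in OGE, 198, 224 and 228 FPKM in OGP and 176, 188 and 174 FPKM in control libraries. OGP stood above both other groups, which overlapped. The log2 fold change was 0.27 ± 0.08 in OGP against control (limma adjusted p = 0.032) and -0.33 ± 0.08 in OGE against OGP (adjusted p = 0.021). The annotation holds pseudogenes named Pcna-ps1 and Pcna-ps2, which could share reads with it. Rfc4, a small subunit of the clamp loader, was likewise highest in OGP, at 45.8, 46.5 and 41.7 FPKM in OGE, 54.8, 63.3 and 60.0 FPKM in OGP and 44.7, 42.0 and 40.9 FPKM in control libraries. OGP again lay above all other libraries without overlap. Rfc4 differed by 0.48 ± 0.08 in OGP against control (adjusted p = 0.0028) and by -0.41 ± 0.08 in OGE against OGP (adjusted p = 0.0085), and 12.7% of its exon length overlaps Eif4a2 on the opposite strand. Rfc2, another small subunit, was also highest in OGP, with means of 15.0 ± 0.119 FPKM in OGE, 17.5 ± 0.896 FPKM in OGP and 14.6 ± 0.605 FPKM in control libraries (SD, n = 3 each). Its adjusted p was 0.021 between OGP and control and 0.051 between OGE and OGP, and 15.1% of its exon length overlaps Lat2 on the opposite strand. Rfc1, the large subunit particular to this loader, and Rfc3 overlapped between all groups, at 21.9 to 25.0 FPKM and 20.7 to 24.3 FPKM. Rfc5, the remaining small subunit, was at 18.2, 19.1 and 18.6 FPKM in OGE and 22.1, 22.6 and 21.4 FPKM in OGP libraries, which did not overlap (adjusted p = 0.078), and control spanned both at 17.9 to 22.3 FPKM. All 6 genes of the clamp and its loader had a log2 fold change above 0 in OGP against control (median 0.20) and below 0 in OGE against OGP (median -0.23), 2 comparisons that share the OGP libraries.

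**Figure D3:**
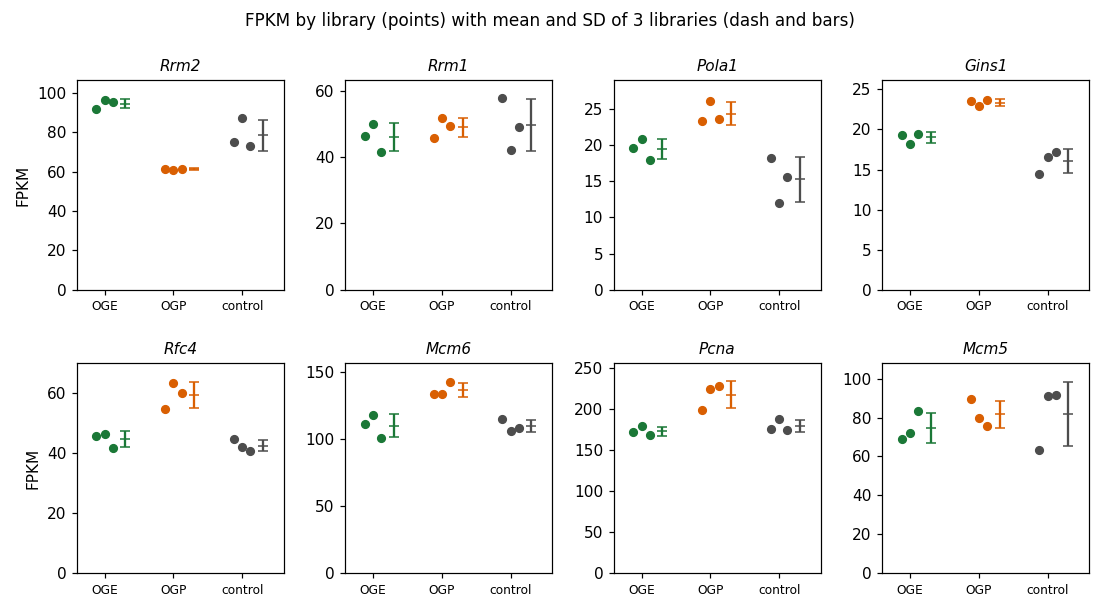
FPKM in each library (points) with the mean and SD of 3 libraries (dash and bars) for 8 genes, on axes that start at 0. Rrm2 is lowest in OGP at 60.8 to 61.7 FPKM, while Pola1, Gins1, Rfc4, Mcm6 and Pcna are highest there, and Rrm1 and Mcm5 overlap between all groups.

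None of the single-strand binding proteins and lagging-strand enzymes had an adjusted p of at most 0.05 in a comparison. Rpa1, the large subunit of replication protein A, had means of 50.6 ± 1.75 FPKM in OGE, 54.2 ± 1.47 FPKM in OGP and 56.5 ± 2.47 FPKM in control libraries, and Rpa2, the middle subunit, 27.4 ± 0.412 FPKM in OGE, 30.2 ± 0.746 FPKM in OGP and 27.5 ± 2.83 FPKM in control libraries (SD, n = 3 each). Their adjusted p-values in limma were 0.125 or more in every comparison. Lig1, the ligase that joins lagging-strand fragments, was at 44.0 to 53.0 FPKM. Fen1 was at 2.62, 2.05 and 3.41 FPKM in OGE, 3.84, 2.22 and 2.82 FPKM in OGP and 2.65, 4.23 and 5.15 FPKM in control libraries. The groups overlapped. Its log2 fold change was -0.48 in OGE against control, the furthest from 0 of any member there, -0.37 in OGP against control, with -0.11 for OGE against OGP. Its intervals were the widest of any member, from -1.05 to 0.08 in OGE against control, and without control replicate 1 that difference was -0.72 (limma adjusted p = 0.034) and passed both thresholds. Its exons overlap Gm10143 and Tmem258 on the opposite strand over 84.2% of their length, which leaves its low level uncertain.

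Ribonucleotide reductase, which turns ribonucleotides into deoxyribonucleotides, gave the smallest adjusted p of the set in any comparison. Rrm2, at chr12:24708241-24714146, was at 92.1, 96.5 and 95.3 FPKM in OGE, 61.7, 60.8 and 61.5 FPKM in OGP and 75.0, 87.5 and 73.1 FPKM in control libraries. The 3 groups did not overlap, with OGE highest, control between and OGP lowest, and the OGP libraries differed by less than 1 FPKM. Its log2 fold change was 0.62 ± 0.08 in OGE against OGP (limma adjusted p = 8.8e-04), a fold of 1.54, and lay between 0.61 and 0.64 with any library left out and between 0.62 and 0.79 under the other settings. It was -0.35 ± 0.08 in OGP against control (adjusted p = 0.011) and 0.27 ± 0.08 in OGE against control (adjusted p = 0.037), both under 1.5-fold. The last kept an adjusted p of at most 0.05 in 2 of 9 fits with a library left out, and its largest was 0.13. Rrm1, the large subunit that carries the catalytic site, was at 46.5, 49.9 and 41.6 FPKM in OGE, 45.9, 51.7 and 49.4 FPKM in OGP and 57.7, 42.1 and 48.9 FPKM in control libraries, and overlapped between all groups. Its log2 fold change in OGE against OGP was -0.09, with a 95% interval of -0.36 to 0.18.

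The ratio of Rrm2 to Rrm1 was 1.982, 1.936 and 2.288 in OGE, 1.344, 1.176 and 1.246 in OGP and 1.3001, 2.079 and 1.493 in control libraries. OGE and OGP did not overlap, and control spanned the gap between them. The exact permutation test gave a two-sided p of 0.1 for OGE against OGP, the smallest possible. It gave 0.2 for OGP against control and 0.3 for OGE against control. Rrm2 alone separated OGE from OGP by more than Rrm1 varied, so the p of 0.1 adds nothing to the Rrm2 values. Samhd1, the enzyme that breaks deoxynucleotides down, was outside the 39 genes and was at 16.7, 16.5 and 15.4 FPKM in OGE, 28.6, 29.8 and 28.5 FPKM in OGP and 29.4, 27.8 and 29.1 FPKM in control libraries. Here OGE lay below both of the others, which overlapped. Samhd1 fell by 0.82 on the log2 scale in OGE against OGP (limma adjusted p = 5.2e-05), while OGP against control gave 0.01 ± 0.07. The ratio of Rrm2 to Samhd1 was 5.85 ± 0.335 in OGE, 2.12 ± 0.0717 in OGP and 2.74 ± 0.358 in control libraries (SD, n = 3 each). The exact permutation p was 0.1 in each comparison. Every OGE library was above all others for Rrm2 and below all others for Samhd1. The ratio therefore had to separate OGE, and its p for OGE adds nothing to the values of both genes.

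The thymidylate genes did not share the direction of Rrm2 in OGE cells. Tyms, which makes thymidylate from deoxyuridylate, was at 32.7, 34.2 and 33.1 FPKM in OGE, 38.7, 40.3 and 38.9 FPKM in OGP and 40.6, 39.4 and 40.9 FPKM in control libraries. OGE lay below all other libraries, by -0.23 ± 0.06 against OGP (limma adjusted p = 0.027) and -0.27 ± 0.06 against control (adjusted p = 0.012), both under 1.5-fold, and the annotation holds a pseudogene named Tyms-ps. Tk1, the S-phase thymidine kinase of the salvage pathway, was at 26.2, 24.4 and 29.4 FPKM in OGE, 32.1, 32.0 and 31.5 FPKM in OGP and 23.4, 35.5 and 33.3 FPKM in control libraries. OGE lay below OGP, control replicate 1 lay below both, and no comparison gave an adjusted p of at most 0.05. Uhrf1, which carries DNA methylation over to the new strand, overlapped between all groups at 45.2 to 56.2 FPKM.

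The members also differed in which library stood out. Control replicate 1 was the highest control library for 16 members and the lowest for 19, whereas control replicate 3 was highest for 8 and lowest for 6. In control replicate 1, Mcm5, Pold1, Pold2, Gins2 and Tk1 were lowest of the group, and Rrm1, Pole2, Prim1 and Pola1 were highest. OGE replicate 3 was highest of its group for 17 members and lowest for 18. Mki67 was likewise uneven in the control group, at 62.2, 34.3 and 46.8 FPKM, against 43.3, 47.7 and 39.7 FPKM in OGE and 34.3, 34.99 and 33.5 FPKM in OGP libraries, and its part in these differences was not tested. Between OGP and control, 13 members did not overlap, 11 of them higher and 2 lower in OGP, against 42.9% of all genes in either direction, 20.3% higher and 22.6% lower. Between OGE and OGP, 20 members did not overlap, 5 higher and 15 lower in OGE, against 45.4% of all genes, 23.3% higher and 22% lower. Between OGE and control, 12 members did not overlap, 9 higher and 3 lower in OGE, against 38.2% of all genes, 18.6% higher and 19.6% lower.

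**Figure D4:**
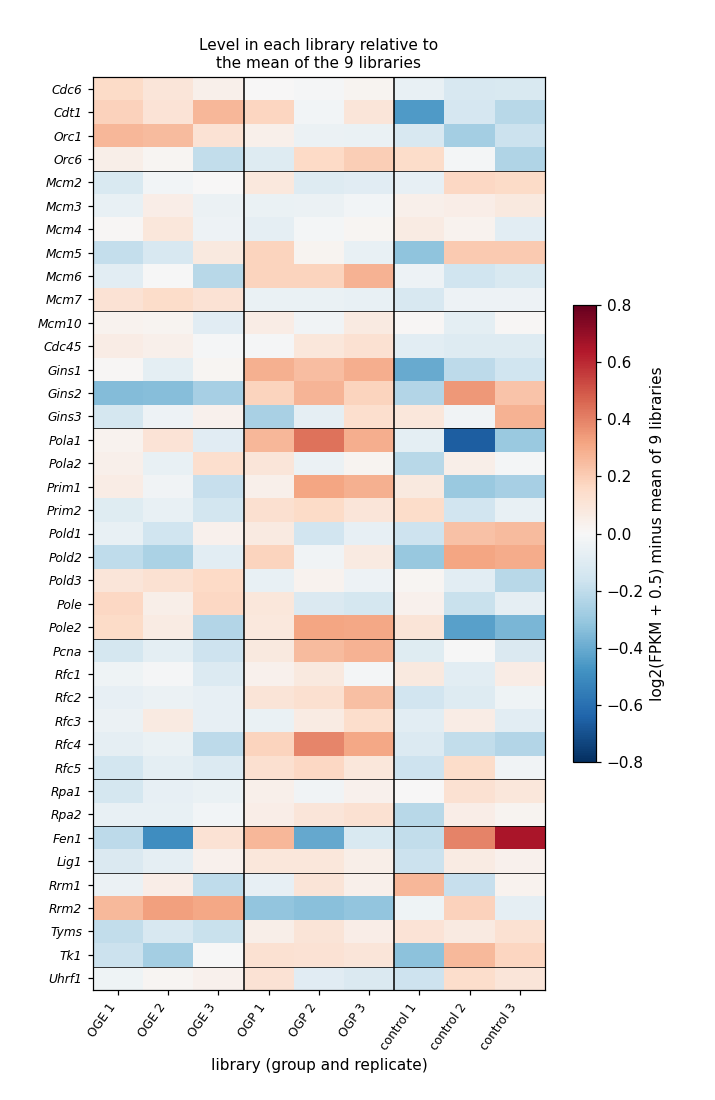
Level of each gene in each of the 9 libraries as log2(FPKM + 0.5) minus its mean over the libraries, with genes ordered by role and groups divided by vertical lines. The rows of Gins1, Pola1, Rfc4, Mcm6 and Pcna are red in the 3 OGP columns, the row of Rrm2 is blue there, and control replicate 1 differs in many rows from the other control columns.

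Other genes of the same processes were counted in the same way. Over all genes, 6.38% rose and 5.74% fell in OGP against control. The shares were 3.39% and 4.73% in OGE against OGP and 5.14% and 6.33% in OGE against control. At an unadjusted p under 0.05 in limma they were 41.7%, 34.7% and 37% in the same order. Of 33 other replication factors, 2 rose in OGP against control and 0 fell, with 14 at an unadjusted p under 0.05 in limma. These were Rnaseh2b, a subunit of the nuclease that removes RNA from DNA, at a log2 fold change of 0.61 ± 0.11 (adjusted p = 0.0031), and Dscc1, a subunit of an alternative clamp loader, at 0.62 ± 0.12 (adjusted p = 0.0042). In OGE against OGP 0 of the 33 were called, with 15 at an unadjusted p under 0.05, and in OGE against control 0, with 6. Of 10 chromatin factors that work behind the fork, such as the histone chaperones Chaf1a and Asf1b, 0 were called in any comparison, with 3, 2 and 0 at an unadjusted p under 0.05. Of 31 other enzymes of nucleotide supply, 1 fell in OGP against control, 1 in OGE against OGP and 2 in OGE against control, and 0 rose, with 9 at an unadjusted p under 0.05 in each. The first was Ctps, which makes cytidine triphosphate, at 47.7, 46.1 and 45.0 FPKM in OGP against 78.8, 82.2 and 78.4 FPKM in control libraries. It fell by 0.78 on the log2 scale (adjusted p = 6.4e-05), and both it and Samhd1 fell in OGE against control.

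Genes that act before and after S phase were counted as well, to be read beside the same shares of all genes. Of 31 mitosis genes, 4 fell in OGP against control and 0 rose, with 12 at an unadjusted p under 0.05 in limma. They were Aurka, a kinase of the spindle poles, at 26.4, 28.0 and 31.1 FPKM in OGP against 45.1, 50.8 and 47.2 FPKM in control libraries, and Aurkb, Plk1 and Incenp, of which the last pair were named after their values were seen. The median log2 fold change of the 31 was -0.13 in OGP against control, 0.02 in OGE against OGP and -0.12 in OGE against control, and 0 were called in the last pair of comparisons, with 6 and 10 at an unadjusted p under 0.05. Of 29 tested G1 and E2F regulators, 2 rose and 3 fell in OGP against control. Ccnd1, the cyclin D1 gene that drives entry into S phase, was at 12.2, 9.56 and 14.9 FPKM in OGE, 26.9, 23.1 and 21.3 FPKM in OGP and 9.67, 9.98 and 10.3 FPKM in control libraries. OGP stood above both other groups, by 1.21 ± 0.15 against control (adjusted p = 4.9e-04), and OGE fell by 0.95 on the log2 scale against OGP (adjusted p = 0.0023). Ccne1, the cyclin of the G1 to S transition, fell by 0.79 in OGP against control, and E2f2, an activating E2F, was at 2.96, 2.48 and 3.52 FPKM in OGE against 1.59, 1.29 and 1.55 FPKM in OGP libraries, a rise of 0.81 ± 0.13 (adjusted p = 0.0025). The others called in OGP against control were Cdkn1a, the p21 inhibitor of cyclin-dependent kinases, which rose by 0.79, and Ccnd3 and Cdkn2d, which fell. In OGE against control 1 regulator rose, E2f8, a repressing E2F, by 0.61, and 2 fell, Ccnd3 at a log2 fold change of -0.91 and Cdkn2d at -1.304. Cdkn1a, Ccnd3, Cdkn2d and E2f8 were named after their values were seen. These lists were compared with the 39 genes by counts and medians only, and no difference between lists was tested.

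**Figure D5:**
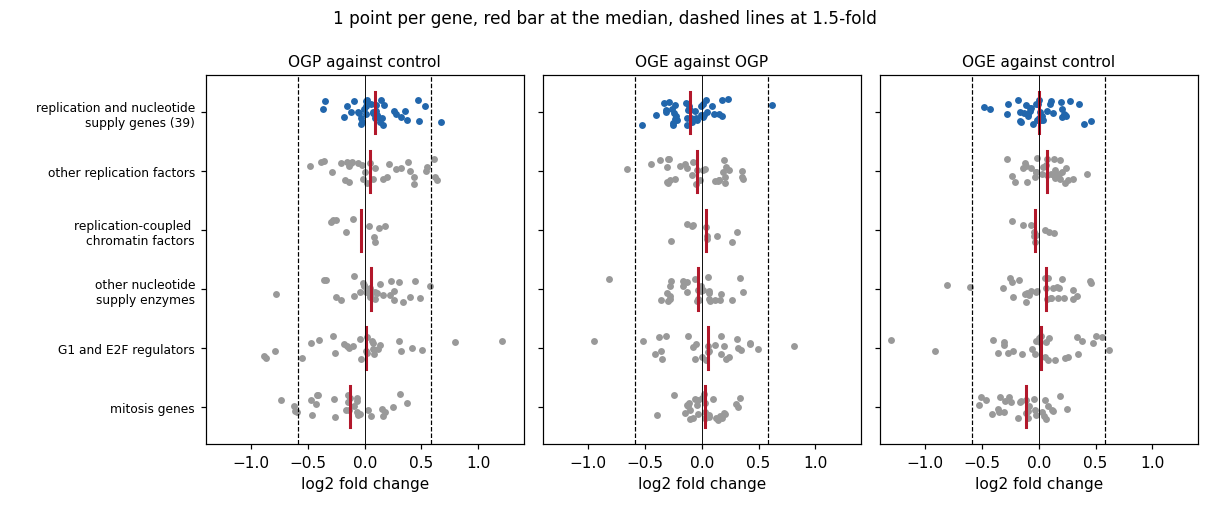
Log2 fold change of each gene of the set and of 5 related lists in the 3 comparisons, with 1 point for each gene, a red bar at each list's median and dashed lines at 1.5-fold. The medians of the 39 genes are 0.09, -0.10 and 0.00, and their points lie between the dashed lines except Pola1 in the left panel and Rrm2 in the middle panel.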

How the data were processed

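RNA-seq libraries of poly-A RNA from HT22 cells were sequenced in paired ends, filtered, aligned with HISAT2 2.0.5 to mm10 and counted per gene with FeatureCounts by the authors. The authors then deposited FPKM values, made with a tool not given in the sources used here, and no count table was used. Multiplied by gene length and divided by each library's smallest step, 100% of the values came out whole to within 0.1, which gave the reads in genes.

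Genes averaging 0.5 FPKM or more were tested on log2(FPKM + 0.5) with limma 3.58.1 in R 4.3.3 (trended prior variance, 1 fit of 3 groups, no covariate), with Benjamini-Hochberg adjustment across every tested gene. As in the study's methods, a call needed a fold of 1.5 or more beside an adjusted p of 0.05 or less, and "rose" and "fell" stand for such calls. The fit was tested on simulated data. A fold on the log2(FPKM + 0.5) scale understates the change of low genes. Ratios were compared with exact two-sided permutation tests. Intervals and p-values cover the spread between libraries only.

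The 39 members and all lists were chosen with earlier results of these data known. Every member was accounted for, with values in each library for called members and at least 1 of each role, and up to 4 genes of another list were named by smallest p. Alternatives were pseudocounts of 0.1 and 1, other filters, quantile and median rescaling, 6 libraries only, robust variance, a replicate block, no fold threshold, voom on recovered reads and libraries left out. Overlaps between genes came from GENCODE M21, and promoters from RefSeq.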

Additional observations from a re-analysis of the deposited data

How the results depend on the processing

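No member changed direction among those called, and the counts of members called (Pola1 alone higher in OGP against control, Rrm2 alone higher in OGE against OGP, 0 in the other directions and in OGE against control) were identical with pseudocounts of 0.1 and 1, no filter, a mean of at least 1 FPKM, quantile and median rescaling, 6 libraries, robust variance and voom on recovered reads. With no fold threshold the counts were 9 higher and 1 lower between OGP and control, 1 and 6 between OGE and OGP, and 5 and 2 between OGE and control. In the same order these were 4 and 1, 2 and 12, and 2 and 1 with 6 libraries, 6 and 1, 2 and 6, and 4 and 1 with no filter, 6 and 1, 2 and 4, and 6 and 0 with quantile normalization, and 9 and 1, 1 and 6, and 3 and 2 with voom. The cause was not tested. Without control replicate 1 and OGE replicate 3 together, 2 were higher (Pola1 and Pole2) and 1 lower (Fen1) in OGP against control, and 2 were lower (Gins2 and Fen1) in OGE against control. With 1 library left out, OGP against control gave 0 to 2 higher and 0 lower, OGE against OGP 1 higher and 0 lower, and OGE against control 0 higher and 0 to 2 lower. The count of 0 came without control replicate 2, and the counts of 2 without control replicate 1.

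Whether replicate numbers pair the libraries could not be settled, because the 3 deviations in a group sum to 0 and are tied to each other. The correlation of same-numbered libraries' deviations from their group means was -0.18, -0.05 and -0.11 in OGP and control, -0.09, 0.07 and -0.10 in OGE and OGP, and 0.14, -0.12 and 0.32 in OGE and control. Libraries of unlike number gave -0.35 to 0.26, with both ends in OGE and control. With the replicate number as a block the counts of calls were the same, 1 and 0, 1 and 0, and 0 and 0, and with no fold threshold they were 5 and 1, 1 and 3, and 2 and 2.

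The lowest member, Fen1, rested on 84 to 232 reads per library, the least of any member, which limits what can be said of it.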
